A study of Mus musculus with 12 samples.

Results

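Complexins and their partners in synaptic vesicle fusion were followed in whole mouse retina through 10 genes. These were the 4 complexin genes (Cplx1, Cplx2, Cplx3 and Cplx4), the SNARE genes Snap25, Vamp2 and Stx3, the calcium sensor gene Syt1, and the vesicle GTPase genes Rab3a and Rab3c. The genes were taken by symbol, after matching the Ensembl identifiers of the gene table, from 55487 genes in all. All were among the 16233 genes with enough counts to test, and the least abundant, Rab3c, held 662 to 2927 counts per library.

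Polyadenylated RNA was sequenced from retinas of WT mice (C57BL/6J) and of 5xFAD mice (strain label Tg6799) aged 1 or 6 months. Each of these 4 combinations had 3 libraries. The 5xFAD line is a model of Alzheimer disease that carries mutant human transgenes, APP among them, under the neuronal Thy1 promoter. The series asks which transcripts, retained introns included, differ between the genotypes. The labels do not say that the 3 libraries of a group came from separate animals, and p-values here therefore reflect only how much samples varied, which may be technical.

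At a chemical synapse, a vesicle SNARE protein (VAMP2) and plasma membrane SNARE proteins (SNAP-25 and a syntaxin) assemble into a helical bundle that pulls the membranes together. Complexins bind that bundle and both restrain and promote its fusion, synaptotagmin 1 triggers fusion when calcium enters, and RAB3 GTPases tether and prime the vesicles. The retina holds conventional synapses, chiefly of amacrine cells, where complexins 1 and 2 are known to work. Its photoreceptors and bipolar cells release glutamate continuously at ribbon synapses, where complexins 3 and 4 and syntaxin 3 are known to work.

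Libraries held 10.9 to 19.6 M expected counts. Markers of rods, cones, bipolar, amacrine, horizontal and ganglion cells and Mueller glia were present in all 4 groups. The libraries also differed in composition: the mean annotated transcript length behind a count was 3710 ± 135 nt in WT and 4237 ± 15.3 nt in 5xFAD at 1 month, and 3911 ± 190 nt in WT and 3658 ± 55 nt in 5xFAD at 6 months (SD, n = 3). Ribosomal RNA genes, the mitochondrial ones included, took 0.165% to 1.44% of counts. The 3 libraries richest in them were WT replicate 2 at 1 month and 5xFAD replicates 1 and 2 at 6 months. In whole tissue, fewer cells of a type and less RNA per cell cannot be told apart.

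Per unit of transcript length (TPM, transcript levels per length scaled to a constant sum per library), Snap25 stood first in all 4 groups, at 1409 ± 77.2 TPM in WT at 1 month (SD, n = 3). Vamp2 followed at 745.6 ± 45.1 TPM and Stx3 at 657.9 ± 33.4 TPM in the same group. The ranges of Vamp2 and Stx3 overlapped in both 5xFAD groups and did not in the WT groups. Cplx4, Rab3a, Syt1 and Cplx3 lay next in WT at 1 month, at 499.2 ± 33.8, 454.6 ± 39.5, 407 ± 59.3 and 345.4 ± 47.9 TPM, and each neighbouring pair in that order overlapped. Cplx1 (104.6 ± 7.2 TPM) and Cplx2 (80.36 ± 13.3 TPM) were lower, and Rab3c was lowest at 19.62 ± 4.78 TPM. Cplx1, Cplx2 and Rab3c held the last 3 places in every group. Only Syt1, Rab3a and Cplx4 changed places, with Syt1 above both of the others in 5xFAD at 1 month, at 619.5 ± 12.6 TPM.

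The differences between groups were tested per gene with edgeR's quasi-likelihood test on counts, and a call needed a Benjamini-Hochberg adjusted p below 0.05 across the 16233 genes. Values per library are CPM, counts scaled to library size with TMM factors, listed in the order of replicates 1, 2 and 3. A value after ± on a log2 fold change is its standard error. At 1 month, 3 of the 10 genes were called, Rab3c and Syt1 higher and Rab3a lower in 5xFAD, against 19.6% of all genes tested (10.7% higher and 8.91% lower). At 6 months 3 were called, Rab3c, Cplx2 and Syt1, all lower in 5xFAD, against 6.38% of all genes (3.89% lower). The median log2 fold change of the 10 genes was -0.02 at 1 month and -0.13 at 6 months, beside -0.04 and 0.0028 over all genes tested.

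**Figure D1:**
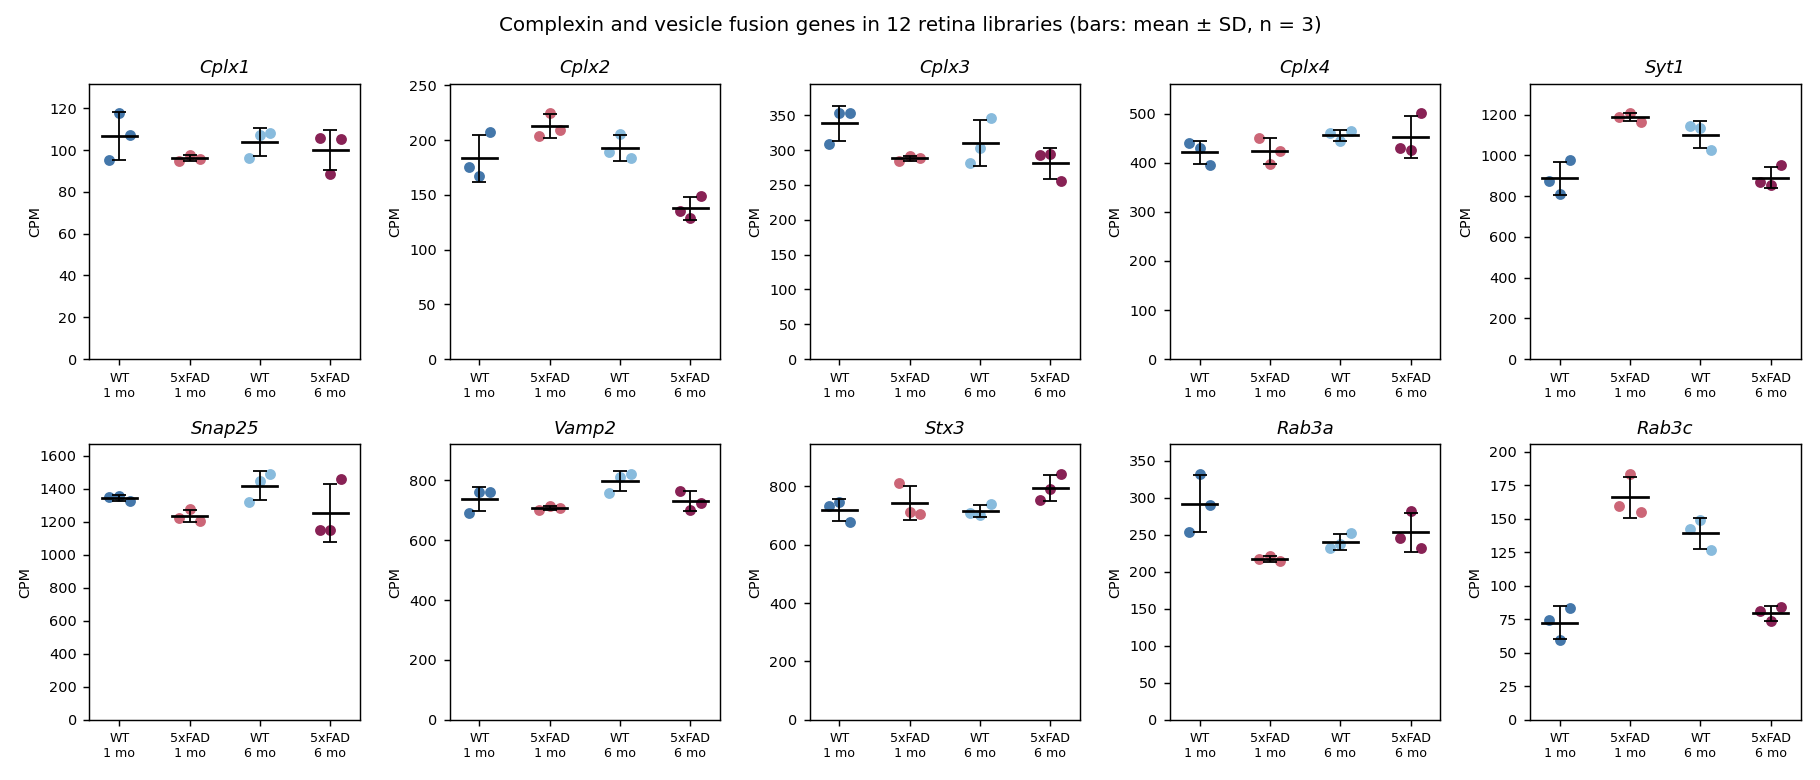
CPM of each gene (vertical axes, from 0) in each of the 12 libraries (points), by genotype and age, with the group mean and SD (bars, n = 3). Rab3c, Syt1 and Cplx2 were higher in 5xFAD than in WT at 1 month and lower at 6 months by their means, while Cplx1, Cplx4, Vamp2 and Stx3 lay close together in all groups.

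Rab3c encodes a RAB3 GTPase of synaptic vesicles and had the largest change of the 10 genes. At 1 month its levels were 74.6, 59.5 and 83.6 CPM in WT and 160, 184 and 155 CPM in 5xFAD. By 6 months the WT libraries were at 142, 149 and 127 CPM and the 5xFAD libraries at 80.8, 73.5 and 84.3 CPM. The genotypes did not overlap at either age, and the order of the genotypes was opposite at the 2 ages. In 5xFAD, Rab3c was higher by 1.19 ± 0.12 on the log2 scale at 1 month (2.29-fold, edgeR adjusted p = 1.03e-06), with the p-value of rank 8 among all genes. The older 5xFAD retinas had less of it than WT, with a log2 fold change of -0.81 ± 0.12 (0.571-fold, edgeR adjusted p = 0.000202).

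Between the ages, Rab3c rose in WT (log2 fold change 0.94 ± 0.12, edgeR adjusted p = 2.22e-05) and fell in 5xFAD (-1.06 ± 0.12, adjusted p = 2.14e-06). These 4 contrasts share libraries, so their values stand side by side and do not count as separate evidence. The genotype difference itself changed between the ages by -2.00 ± 0.17 on the log2 scale (interaction, edgeR adjusted p = 3.6e-08). All 5 of these calls held with each replicate left out in turn, with each scaling and filter tried and with the DESeq2 Wald test.

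Syt1 encodes synaptotagmin 1, the calcium sensor of fast release, and moved in the same directions with smaller size. Its levels at 1 month were 872, 813 and 976 CPM in WT and 1189, 1208 and 1166 CPM in 5xFAD. The older groups were at 1143, 1135 and 1025 CPM in WT and 869, 853 and 951 CPM in 5xFAD. The groups did not overlap at either age. The log2 fold change was 0.42 ± 0.08 at 1 month (edgeR adjusted p = 0.00101) and -0.31 ± 0.08 at 6 months (adjusted p = 0.0302). The interaction was -0.73 ± 0.12 (edgeR adjusted p = 9.23e-05).

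The Syt1 difference at 6 months did not pass without WT replicate 1 or 2 or 5xFAD replicate 1 or 2, with edgeR adjusted p from 0.0891 to 0.126 at log2 fold changes from -0.31 to -0.28. With only the compared libraries in the fit it was -0.30 (edgeR adjusted p = 0.093), and without those 3 rRNA-rich libraries -0.21 (adjusted p = 0.387). Both Rab3c and Syt1 were called in opposite directions at the 2 ages, as were 668 genes, or 4.12% of those tested. Across the 12 libraries, the Pearson r of log2 CPM between Rab3c and Syt1 was 0.98. This is a description over libraries that fall into groups differing in composition.

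Rab3a encodes the most abundant brain RAB3 GTPase and differed at 1 month only, in the direction opposite to Rab3c. At 1 month its levels were 254, 332 and 290 CPM in WT, against 217, 222 and 214 CPM in 5xFAD, with no overlap. The older groups were at 232, 237 and 253 CPM in WT and 245, 282 and 232 CPM in 5xFAD, and the groups overlapped. The log2 fold change was -0.43 ± 0.10 at 1 month (edgeR adjusted p = 0.00333) and 0.07 ± 0.10 at 6 months (adjusted p = 0.743). The interaction passed at 0.50 ± 0.14 (edgeR adjusted p = 0.0101), but not when those 3 libraries rich in ribosomal RNA were left out (0.28, adjusted p = 0.218). Rab3a shares 29 exonic bases, 1.3% of its exonic length, with Mpv17l2 on the opposite strand, and an unstranded library cannot assign reads there.

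By gene counts, the complexins split into Cplx2, which changed, and the other 3 genes. Those 3 did not pass in any comparison with edgeR or the DESeq2 Wald test. Cplx2, a complexin of conventional synapses, was at 175, 167 and 208 CPM in WT at 1 month and at 204, 225 and 209 CPM in 5xFAD of that age. By 6 months its levels were 189, 206 and 183 CPM in WT and 135, 129 and 149 CPM in 5xFAD. The groups overlapped at 1 month and did not at 6 months, where all 5xFAD libraries were below every other library of the study. The log2 fold change was 0.21 ± 0.10 at 1 month (edgeR adjusted p = 0.129) and -0.49 ± 0.10 at 6 months (adjusted p = 0.00392), with an interaction of -0.70 ± 0.14 (adjusted p = 0.000608).

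Without the 3 libraries richest in ribosomal RNA, which leaves 1 5xFAD library at 6 months assumed to vary like the others, the Cplx2 difference at that age was -0.38 (edgeR adjusted p = 0.143). Without WT replicate 3 at 1 month, the Cplx2 difference at 1 month was 0.34 and passed (edgeR adjusted p = 0.027). Cplx2 fell with age in 5xFAD, by 0.63 ± 0.10 on the log2 scale (edgeR adjusted p = 7.63e-05), and its change in WT was 0.07 ± 0.10 (adjusted p = 0.716).

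Cplx3, a complexin of ribbon and amacrine cell synapses, was at 309, 353 and 353 CPM in WT at 1 month and at 284, 291 and 288 CPM in 5xFAD of that age. These libraries did not overlap, but the log2 fold change of -0.23 ± 0.09 did not pass (edgeR adjusted p = 0.0829). At 6 months it was -0.14 ± 0.09 by counts (edgeR adjusted p = 0.411), and the CPM overlapped. Per length, Cplx3 was then at 383.7 ± 20.9 TPM in WT and 254.4 ± 8.73 TPM in 5xFAD (SD, n = 3). The TPM ranges, 370.6 to 407.8 and 244.3 to 259.8, did not overlap, and TPM was not tested. Groups that do not overlap in CPM are common here. At 1 month 5 of the 10 genes had no overlap (Cplx3, Syt1, Snap25, Rab3a and Rab3c), beside 37.6% of all genes. At 6 months 4 had no overlap (Cplx2, Syt1, Stx3 and Rab3c), beside 24.2%. Cplx4, the complexin of photoreceptor ribbon synapses, showed the smallest differences, 0.01 ± 0.09 at 1 month and -0.01 ± 0.09 at 6 months. Cplx1, the other complexin of conventional synapses, had log2 fold changes of -0.15 ± 0.10 and -0.06 ± 0.10.

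Within the complexin mRNA pool, counted per length, the ribbon synapse pair Cplx3 and Cplx4 made up 82.05% ± 0.80 in WT and 81.29% ± 1.03 in 5xFAD at 1 month (SD, n = 3). At 6 months the pair made up 83.04% ± 1.06 in WT and 83.49% ± 0.82 in 5xFAD. The genotype differences of -0.77 and 0.46 percentage points were smaller than the SD of at least 1 of the groups compared (exact permutation test, two-sided, p = 0.5 and 0.7). Between the ages the share differed by 0.99 points in WT (exact p = 0.3) and by 2.21 points in 5xFAD (exact p = 0.1, the smallest that 3 against 3 libraries can give). Adjusted over the 4 comparisons these p-values were 0.667, 0.7, 0.6 and 0.4. The 5xFAD libraries did not overlap between the ages, running from 80.24% to 82.3% at 1 month and from 82.76% to 84.37% at 6 months. The summed pair hides opposite genotype differences in the shares of its members in the older retinas. Cplx3 alone held 24.55% to 29.24% of the pool in 5xFAD libraries of 6 months, below the WT range of 32.52% to 36.0%. Cplx4 alone held 53.85% to 58.8% there, above the WT range of 47.83% to 50.95%. Both shares overlapped between the genotypes at 1 month. A share depends on the other complexins, and the level of Cplx4 itself was not higher in 5xFAD at 6 months. It was at 559.0 ± 19.8 TPM in WT and 519.3 ± 57.1 TPM in 5xFAD (SD, n = 3), with overlapping ranges. Shares of single complexins were not tested.

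The 3 SNARE genes passed in no comparison at the level of the gene, with edgeR or with the DESeq2 Wald test. Snap25, the plasma membrane SNARE shared by both kinds of synapse, was at 1354, 1360 and 1324 CPM in WT at 1 month and at 1226, 1277 and 1205 CPM in 5xFAD of that age. Its log2 fold change was -0.12 ± 0.09 (edgeR adjusted p = 0.366), although these groups did not overlap. The difference at 6 months was -0.18 ± 0.09 (edgeR adjusted p = 0.261). There 5xFAD replicate 3, at 1460 CPM, lay above replicates 1 and 2, at 1154 and 1151 CPM. Without replicate 3 the Snap25 difference at 6 months was -0.33 and passed (edgeR adjusted p = 0.0098). Vamp2, the vesicle SNARE, differed by -0.06 ± 0.08 and -0.13 ± 0.08, and Stx3, the ribbon synapse syntaxin, by 0.05 ± 0.08 and 0.15 ± 0.08 at 1 and 6 months.

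Between the ages, 2 of the 10 genes were called in WT, Rab3c and Syt1 (log2 fold change 0.31 ± 0.08, edgeR adjusted p = 0.0185), beside 10.5% of all genes (6.01% higher). The Syt1 call was lost without WT replicate 2 at 1 month, without WT replicate 1 or 2 at 6 months, without the 3 rRNA-rich libraries and with the trend on length and GC removed, at edgeR adjusted p from 0.0559 to 0.106. Rab3a did not overlap between the ages in WT and was lower at 6 months by its mean, at -0.28 ± 0.10 (edgeR adjusted p = 0.0688). It passed there with the DESeq2 Wald test (-0.28, adjusted p = 0.033) and without WT replicate 1 of 1 month (-0.34, edgeR adjusted p = 0.039). In 5xFAD, 3 were called lower at 6 months, Rab3c, Cplx2 and Syt1 (-0.41 ± 0.08, edgeR adjusted p = 0.00102), beside 23.2% called in either direction (12.4% lower). Without those 3 libraries Syt1 was at -0.31 there (edgeR adjusted p = 0.0692). In the interaction of genotype and age 4 of the 10 passed, Rab3c, Syt1, Cplx2 and Rab3a, beside 25% of all genes (11.7% higher and 13.3% lower). Rab3a was the 1 with a positive value.

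The genes that moved were also those at the ends of the range of transcript length. Rab3c has the longest mean transcript of the 10 at 8382 nt, followed by Cplx2 at 4928 nt and Syt1 at 4727 nt. The other 7 lie between 1379 nt for Rab3a, the shortest, and 2625 nt for Cplx3. Over the 10 genes, the log2 fold change had a Pearson r of 0.91 with log2 length at 1 month and -0.91 at 6 months. Over all 16233 genes r was 0.29 and -0.18. By rank, the correlation over the 10 genes was weaker, with a Spearman value of 0.70 at 1 month and -0.72 at 6 months. Genes share libraries and are not replicates, so these are descriptions.

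When each library's trend on length and GC content was removed before the same test, Rab3c remained called at both ages. Its log2 fold change was then 0.70 ± 0.09 at 1 month (edgeR adjusted p = 1.38e-05) and -0.53 ± 0.09 at 6 months (adjusted p = 0.000654). The Rab3c interaction was -1.23 ± 0.13 (edgeR adjusted p = 2.89e-07). Cplx2 also remained lower at 6 months, at -0.34 ± 0.08 (edgeR adjusted p = 0.00851). Syt1 did not pass at either age, at 0.19 ± 0.06 (adjusted p = 0.0524) and -0.15 ± 0.06 (adjusted p = 0.129), while its interaction did (-0.34 ± 0.09, edgeR adjusted p = 0.0071).

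Rab3a moved to -0.09 ± 0.07 at 1 month with the trend removed (edgeR adjusted p = 0.461), and its interaction to 0.09 ± 0.10 (adjusted p = 0.618). Over all genes, 11.4% were called at 1 month and 8.4% at 6 months with the trend removed, beside 19.6% and 6.38% as reported. The removal also takes away any real difference that runs with length, and how much of each change comes from length was not tested.

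**Figure D2:**
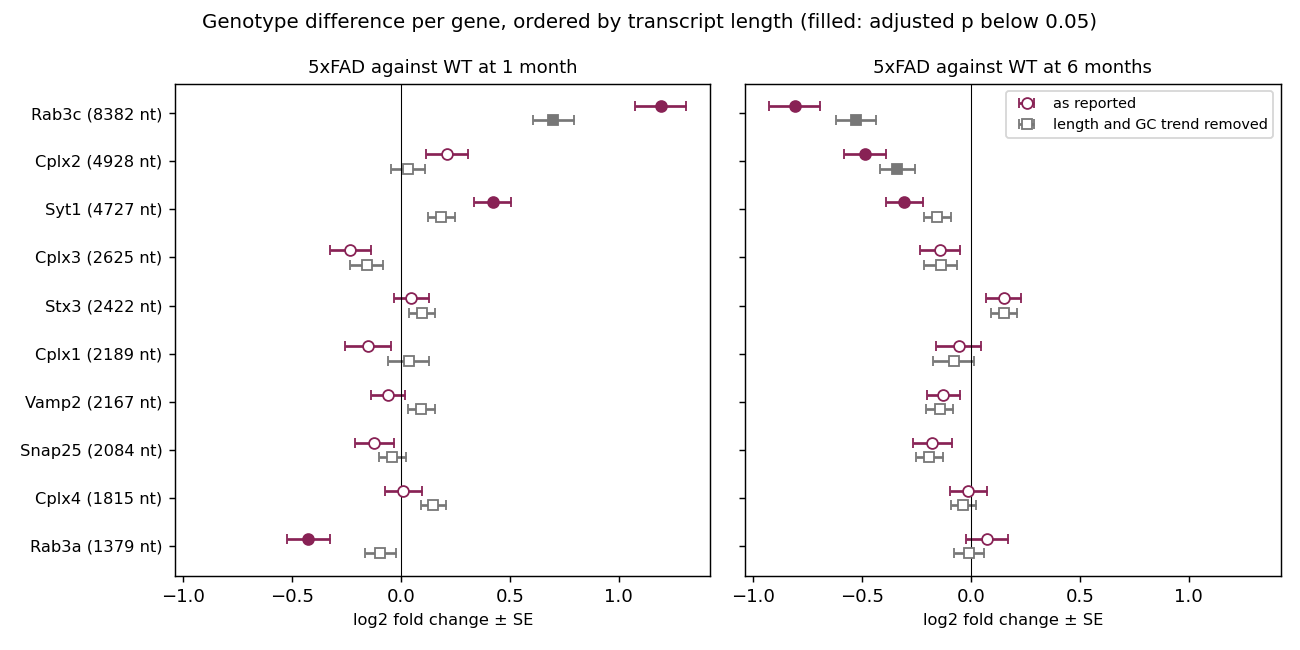
Log2 fold change of 5xFAD over WT with its standard error (horizontal axes) for each gene, ordered by mean transcript length, at 1 month (left) and 6 months (right). Circles are the values as reported and squares those with the length and GC trend removed, filled where the adjusted p is below 0.05. Rab3c stays filled in both forms at both ages, and Rab3a loses its call at 1 month when the trend is removed.

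Isoforms were read from the transcript table, where 31 of 41 annotated transcripts of the 10 genes could be tested. Cplx1, Cplx2 and Cplx4 each had 100% of their counts in 1 transcript, and Rab3c (99.2%), Vamp2 (96.9%), Syt1 (96.4%) and Snap25 (96.1%) had nearly all in 1. Rab3a was split between Rab3a-201 (75.6%) and Rab3a-204 (20.5%), Stx3 between Stx3-203 (91.5%) and Stx3-202 (5.59%), and Cplx3 between Cplx3-201 (89.9%) and Cplx3-203 (8.51%). Snap25 and Stx3 carry pairs of alternative coding exons. These are shown because the minor form passed in the interaction of genotype and age and the gene did not. Whether the minor form differed from its gene was not tested.

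Snap25 is known to use one or the other of a pair of mutually exclusive exons. In GENCODE M21 (GRCm38), exon 5 of the major transcript Snap25-201 is chr2:136770057-136770174 and that of the minor Snap25-202 is chr2:136769743-136769860, both on the plus strand and wholly coding. Each is 118 bases long, and 31 bases differ (73.7% identical). They are printed 5′ to 3′ with the differing bases in capitals.
Snap25-201: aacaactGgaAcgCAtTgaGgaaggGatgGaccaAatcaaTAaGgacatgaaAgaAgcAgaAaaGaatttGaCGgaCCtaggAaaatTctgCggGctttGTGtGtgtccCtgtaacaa
Snap25-202: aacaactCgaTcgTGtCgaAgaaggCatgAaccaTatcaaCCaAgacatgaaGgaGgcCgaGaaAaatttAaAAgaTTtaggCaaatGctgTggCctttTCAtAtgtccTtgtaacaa

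In Stx3, exon 9 of the major transcript Stx3-203 is chr19:11782800-11782910 and that of the minor Stx3-202 is chr19:11783026-11783136, both on the minus strand and wholly coding. Each is 111 bases long, and 43 bases differ (61.3% identical), again in capitals.
Stx3-203: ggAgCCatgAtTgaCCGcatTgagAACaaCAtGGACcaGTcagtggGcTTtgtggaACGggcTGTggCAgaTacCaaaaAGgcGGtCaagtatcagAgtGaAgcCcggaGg
Stx3-202: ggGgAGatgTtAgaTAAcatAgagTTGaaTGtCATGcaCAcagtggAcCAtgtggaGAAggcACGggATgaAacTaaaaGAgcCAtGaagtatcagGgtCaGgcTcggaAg

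Snap25-202, the minor form, made up 2.58%, 2.52% and 3.13% of Snap25 counts in WT at 1 month, against 4.10%, 5.65% and 5.16% in 5xFAD of that age. By 6 months the share was 4.30%, 4.57% and 3.15% in WT and 2.91%, 2.86% and 2.09% in 5xFAD. The groups did not overlap at either age, and the order of the genotypes was opposite at the 2 ages. As a transcript, Snap25-202 was higher in 5xFAD at 1 month (log2 fold change 0.75 ± 0.16, edgeR adjusted p = 0.0387 over 45326 transcripts). Its difference at 6 months was -0.86 ± 0.16 and did not pass (edgeR adjusted p = 0.0544), and the interaction was -1.62 ± 0.23 (edgeR adjusted p = 0.00379).

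The call of Snap25-202 at 1 month was lost with 5 of the 6 libraries left out in turn, all but 5xFAD replicate 1, while its interaction held with each of the 12 left out (edgeR adjusted p from 0.00244 to 0.0152). In 5xFAD it fell with age (-0.96 ± 0.16, edgeR adjusted p = 0.014), a call lost with 3 of the 6 libraries left out in turn (adjusted p up to 0.07). Snap25-202 is annotated at 1014 nt and the mean Snap25 transcript at 2084 nt, and the trend on length was not removed for transcripts.

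Cplx3-203, a coding transcript annotated at 540 nt, made up 5.68%, 7.42% and 7.98% of Cplx3 counts in WT and 7.73%, 10.3% and 7.41% in 5xFAD, both at 1 month. By 6 months the share was 13.6%, 11.04% and 12.8% in WT and 5.48%, 2.89% and 4.98% in 5xFAD, with no overlap. The difference at 6 months was -1.69 ± 0.27 on the log2 scale (edgeR adjusted p = 0.0334). This call was lost without WT replicate 1, 2 or 3 or 5xFAD replicate 2, with edgeR adjusted p from 0.0516 to 0.12. The interaction was -1.74 ± 0.38 (edgeR adjusted p = 0.0265), and was lost with 7 of the 12 libraries left out in turn (adjusted p up to 0.0757). At the level of the gene, Cplx3 counts differed by -0.14 ± 0.09 at 6 months. TPM divides counts by transcript length, so this 540 nt transcript weighs more in the TPM of Cplx3 than in its counts.

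Stx3-202 made up 5.62%, 3.17% and 6.00% of Stx3 counts in WT and 8.58%, 7.37% and 6.34% in 5xFAD, both at 1 month. By 6 months the share was 7.73%, 7.80% and 4.39% in WT and 3.39%, 3.11% and 3.45% in 5xFAD. The genotypes overlapped at neither age, but neither difference passed (0.68 ± 0.27 and -0.89 ± 0.27, edgeR adjusted p = 0.245 and 0.207). The interaction passed at -1.57 ± 0.39 (edgeR adjusted p = 0.0416), but not with 11 of the 12 libraries left out in turn (adjusted p up to 0.133).

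**Figure D3:**
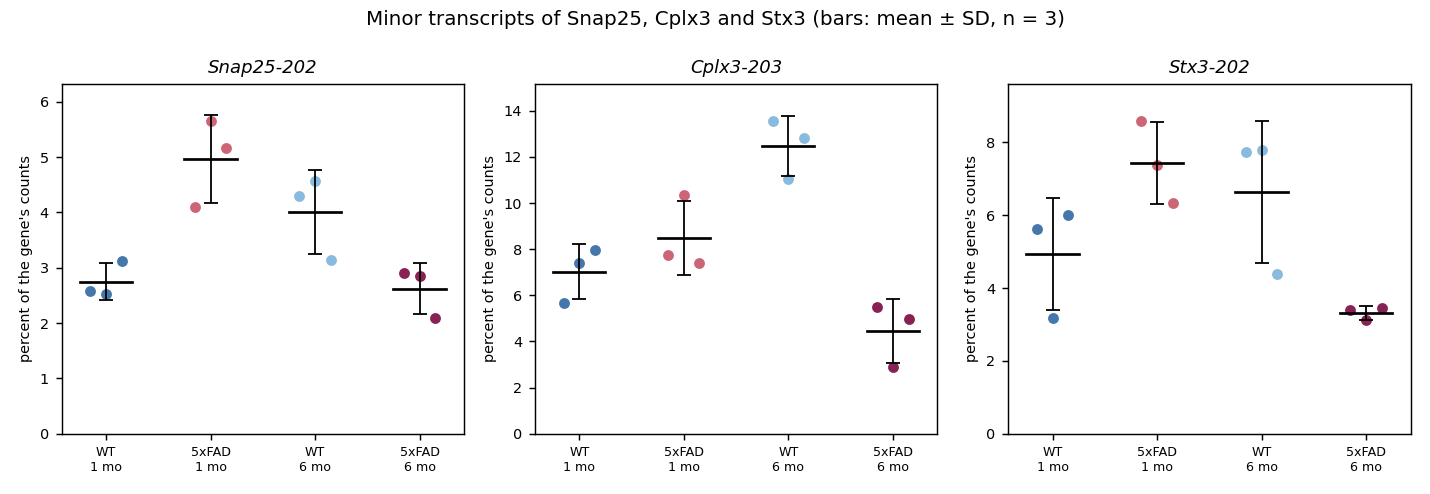
Share of the gene's counts held by Snap25-202, Cplx3-203 and Stx3-202 (percent, axes from 0) in each of the 12 libraries (points), with group mean and SD (bars, n = 3). Each share has its lowest group mean in 5xFAD at 6 months, at 2.62%, 4.45% and 3.32%.

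Counting all transcripts of the 10 genes, 3 were higher in 5xFAD at 1 month (Rab3c-201, Syt1-201 and Snap25-202), beside 2.52% of transcripts called in either direction and 1.6% called higher. At 6 months 2 were lower (Rab3c-201 and Cplx3-203), beside 0.488% and 0.322% called lower. Of these 5 calls, that of Rab3c-201 at 1 month held with each library left out in turn, that of Syt1-201 was lost with any of 6 left out (edgeR adjusted p from 0.0688 to 0.246), and that of Rab3c-201 at 6 months with 4 of 6 (adjusted p up to 0.151). Rab3c-201 was the only one called between the ages in WT (beside 0.916%, and 0.552% higher), and 4 were lower at 6 months in 5xFAD (Rab3c-201, Syt1-201, Cplx2-201 and Snap25-202) beside 3.12%, and 1.96% lower. With libraries left out in turn, the call in WT was lost with 2 of 6. In 5xFAD, that of Rab3c-201 held, and those of Syt1-201, Snap25-202 and Cplx2-201 were lost with 5, 3 and 2 of 6. In the interaction 6 passed, all negative, beside 6.05% and 3.97% negative, these 4 with Cplx3-203 and Stx3-202. Among these 4, that of Cplx2-201 was lost with 3 of the 12 libraries left out in turn (edgeR adjusted p up to 0.0706), and the others held. Of the 7 retained-intron transcripts that could be tested, 0 were called by edgeR in any comparison, and 2 had an unadjusted p below 0.05 at 1 month and 0 at 6 months.

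The retained-intron transcript with the smallest p, Snap25-203, had 1, 4 and 9 counts in WT against 135, 73 and 80 in 5xFAD at 1 month and did not pass (log2 fold change 4.39 ± 1.04, edgeR adjusted p = 0.0585). The older groups had 68, 90 and 30 counts in WT and 58, 16 and 8 in 5xFAD. It held at most 0.956% of Snap25 counts in a library.

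The other genes of the vesicle cycle were taken from 7 lists with 94 tested genes. At 1 month 23 of them were higher and 3 lower in 5xFAD, or 24.5% and 3.19%, beside 10.7% and 8.91% of all genes. At 6 months 10 were lower and 0 higher, or 10.6% lower, beside 3.89% and 2.48% of all genes. At an unadjusted p below 0.05 in edgeR, 24 were lower and 7 higher at 6 months. The median length of the genes higher at 1 month was 4526 nt, that of the 3 lower 1858 nt, and that of the genes not called 3086 nt. At 6 months the 10 lower genes had a median of 4418 nt. With each library's trend on length and GC content removed, 93 of the 94 could be tested, and 19 were higher and 2 lower at 1 month. At 6 months 8 were then higher and 8 lower. In either direction these are 22.6% and 17.2%, beside 11.4% and 8.4% of all genes.

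Among 15 SNARE paralogs tested, Stx5a, which encodes a Golgi syntaxin, was lower at 1 month, at -0.35 ± 0.10 on the log2 scale, and edgeR called 0 of the paralogs lower at that age with the trend removed. Of 16 further synaptotagmins and calcium sensors, 2 were higher at 1 month, Syt11 (0.52 ± 0.11) and Syt2 (0.71 ± 0.15), the latter a fast calcium sensor like synaptotagmin 1. Syt11 was the single one called at 6 months (-0.45 ± 0.11).

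Of 16 genes for SM proteins, priming and SNARE disassembly, 5 were higher and 1 lower at 1 month, and 2 were lower at 6 months. Stxbp5l, which encodes tomosyn-2, an inhibitor of SNARE assembly, was at 16.22, 11.59 and 13.87 CPM in WT and 46.18, 37.82 and 40.47 CPM in 5xFAD at 1 month (1.58 ± 0.24, edgeR adjusted p = 0.000134). Its difference at 6 months was -1.01 ± 0.24, where WT replicate 3 at 17.54 CPM lay among the 5xFAD libraries at 16.37, 18.11 and 15.62 CPM. The priming factor Cadps (0.51 ± 0.09) and the ATPase Nsf that takes SNARE complexes apart (0.44 ± 0.09) were higher at 1 month, and the priming gene Unc13c was lower at 6 months (-0.55 ± 0.14). In the Rab3 cycle 1 of 10 was higher at 1 month and the same gene lower at 6 months, Madd, whose product activates RAB3 by nucleotide exchange (0.47 ± 0.08 and -0.43 ± 0.08).

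Of 15 genes for vesicle membrane proteins, 6 were higher at 1 month, led by Sv2b (0.56 ± 0.09), Sv2c (0.79 ± 0.15) and Syn3 (1.71 ± 0.36), and 1 was lower at 6 months, Sv2a (-0.34 ± 0.09). Of 6 vesicle transmitter transporters, the glutamate transporter gene Slc17a6 was higher at 1 month (0.40 ± 0.11) and edgeR called 0 at 6 months, where Slc17a6 was at 54.32 ± 3.82 CPM in 5xFAD and 57.43 ± 5.01 in WT. Vesicle recycling had the largest share, 7 of 16 higher and 1 lower at 1 month, and 4 of 16 lower at 6 months. Itsn1 (0.92 ± 0.10), Dnm3 (1.01 ± 0.11) and Synj1 (0.65 ± 0.08), which encode an endocytic scaffold, a dynamin and an inositol phosphatase of uncoating, led at 1 month. Dnm3 (-0.73 ± 0.11), Itsn1 (-0.48 ± 0.10) and Pacsin1 (-0.47 ± 0.10) led at 6 months. With the trend removed, the lists changed in different ways. Recycling had 8 of 16 genes higher and 0 lower at 1 month, and 2 higher and 3 lower at 6 months. Vesicle membrane proteins had 3 of 15 higher at 1 month, and 2 higher and 0 lower at 6 months. Of the SM protein, priming and disassembly genes, 4 were higher and 1 lower at 1 month, and 1 was higher and 1 lower at 6 months. Of the further synaptotagmins and sensors, 1 was higher at 1 month, and 1 was higher and 1 lower at 6 months. The Rab3 cycle had 1 higher and 1 lower at 1 month and 1 higher and 2 lower at 6 months, and the transporters had 1 higher at each age.

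**Figure D4:**
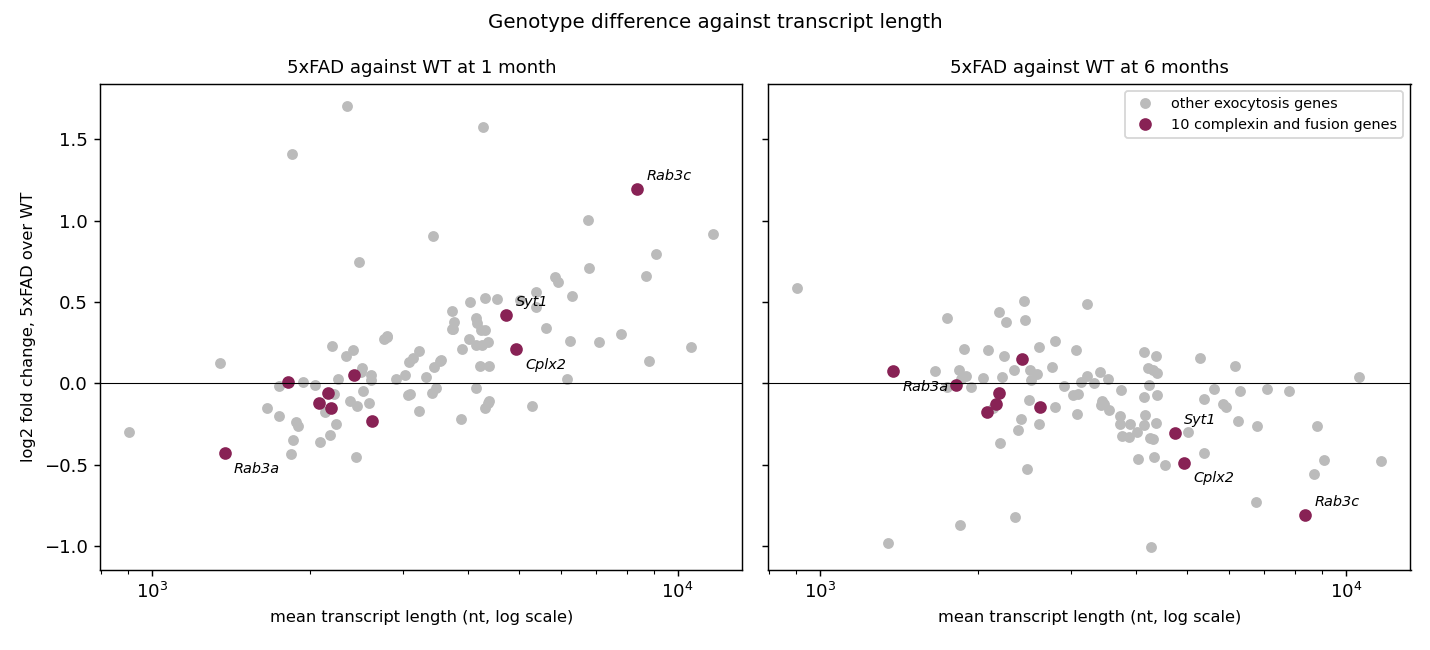
Log2 fold change of 5xFAD over WT (vertical axis) against mean transcript length (nt, log scale) at 1 month (left) and 6 months (right), for the 10 genes (dark) and the other genes of the vesicle cycle (grey). Rab3c, at 8382 nt, is the highest of the 10 at 1 month and the lowest at 6 months, and Rab3a, at 1379 nt, is the lowest at 1 month.

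By likeness of log2 CPM over the 12 libraries, the genes closest to Rab3c were Dnm3 (Pearson r = 0.985), Zbtb4 (0.984) and Spock2 (0.984). Those closest to Syt1 were Nrxn3 (0.99), Dnm3 (0.99) and Gm45591 (0.986). Their mean transcripts ran from 5233 nt for Spock2 to 7602 nt for Zbtb4, apart from Gm45591 at 843 nt. For Cplx2 the nearest were Kdm4d (0.955), Ube4b (0.944) and Sox4 (0.942), and for Rab3a Ppp1r12c (0.954), Acot7 (0.947) and Traf7 (0.941). Gm45591 and Kdm4d had few counts, with means of 0.868 and 0.911 CPM. The correlations are descriptions over libraries that fall into groups differing in composition.

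Summed markers of several cell types differed between groups. The 5 rod markers summed to 45730 to 49370 CPM in WT, against 50230 to 54050 CPM in 5xFAD at 1 month, and to 41080 to 44670 CPM against 49750 to 53940 CPM at 6 months. The sum of the 4 cone markers was lower in 5xFAD at 1 month (845.5 to 1011 CPM, against 1078 to 1306 CPM in WT). At 6 months that sum was higher in 5xFAD (1202 to 1351 CPM, against 899.9 to 990.5 CPM). Rods and cones thus did not overlap between the genotypes at either age. Mueller glia markers, 4 genes, overlapped at 1 month and ran from 2855 to 3150 CPM in WT and from 2617 to 2765 CPM in 5xFAD at 6 months. Horizontal and ganglion cell markers overlapped at both ages. The summed level of 5 bipolar cell markers ran from 951 to 1085 CPM in WT and from 1166 to 1241 CPM in 5xFAD at 1 month, and from 976.7 to 1185 and from 943.7 to 971.8 CPM at 6 months, the order that Rab3c and Syt1 took. The 5 amacrine cell markers summed to 845.2 to 932.9 CPM in WT and 826 to 917.2 CPM in 5xFAD at 1 month. At 6 months they summed to 848.3 to 942.4 CPM in WT and 738.9 to 842.7 CPM in 5xFAD. Pigment epithelium markers, 4 genes, summed to 59.75 to 125.9 CPM in WT and 16.06 to 27.99 CPM in 5xFAD at 1 month, and overlapped between the genotypes at 6 months. Lens markers, 3 genes, summed to 5.382 to 51.72 CPM in 5xFAD at 1 month and to at most 1.051 CPM elsewhere. Their part in the differences of the 10 genes was not tested.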

How the data were processed

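Expected counts, as deposited by the authors, were available for genes and for transcripts in 12 libraries of polyadenylated RNA from an unstranded preparation. Per the submitters' processing notes, the authors used Trim Galore 0.6.6, STAR 2.7.1a, RSEM 1.3.3 and DESeq2 1.32.0 on GRCm38.p6. The annotation is not given in the sources used here. Identifiers were matched to GENCODE M21 (GRCm38) for 55227 of 55487 genes and 141469 of 142699 transcripts, which also gave lengths and exons. A gene's length is the mean of its transcripts, weighted by their counts. Transcript counts per length, scaled to a constant sum per library, gave TPM.

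Counts were rounded and fitted in R 4.3.3 with edgeR 4.0.16 (TMM, filterByExpr, robust quasi-likelihood) over all 12 libraries in 4 groups, leaving 8 residual degrees of freedom. Tested were the genotypes against each other at 1 and at 6 months, the ages within WT and within 5xFAD, and the interaction. The standard error is the absolute log2 fold change over the square root of F. Complexin shares were compared by exact permutation with SciPy 1.17.1. The genes, lists and tests were chosen with earlier results of these data known. All 10 genes are named, with at most 3 called genes per list and comparison, further genes by likeness (3 per gene), and transcripts holding at least 5% of a gene's counts, called, or of the retained-intron class. Of 16 SNARE paralog symbols 15 matched, and 1 of these genes is not reported here. Alternatives were DESeq2 1.42.0 size factors and Wald test, library size alone, 2 other filters, the replicate number as a block, the compared samples alone, removal of each library's length and GC trend (splines with 4 degrees of freedom), 3 libraries rich in ribosomal RNA left out, pseudogenes and mitochondrial and ribosomal RNA genes left out, and each replicate left out. The fits were tested on simulated counts.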

Additional observations from a re-analysis of the deposited data

Results flagged for a closer look

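Effects of genotype that differed between 1 and 6 months by the interaction test of edgeR (adjusted p below 0.05) were found for 4 of the 10 genes and 6 of their transcripts. The log2 difference, 6 months minus 1 month, was -2.00 for Rab3c, -0.73 for Syt1, -0.70 for Cplx2 and 0.50 for Rab3a. For transcripts it was -2.06 for Rab3c-201, -1.74 for Cplx3-203, -1.62 for Snap25-202, -1.57 for Stx3-202, -0.77 for Cplx2-201 and -0.71 for Syt1-201. Rab3c-201, Syt1-201 and Cplx2-201 hold nearly all counts of their genes and repeat the gene values.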

How the results depend on the processing

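Of the 10 genes, Rab3c kept its direction and its call under each alternative run, in all 5 comparisons. Precision is limited by 3 libraries per group and, for transcripts, by low counts. The mean transcript length behind a count differed between the groups, so transcript length and group cannot be fully told apart. The WT libraries also varied within a group. At 6 months WT replicate 3, at 3692 nt, lay within the 5xFAD range of 3615 to 3720 nt, and WT replicates 1 and 2 were at 4019 and 4022 nt. Leaving out the 3 rRNA-rich libraries leaves 1 5xFAD library at 6 months, which is then assumed to vary like the other groups. Where a value below changed, the cause was not tested.

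After removal of the trend on length and GC, genes called fell from 3178 to 1844 between the genotypes at 1 month. They also fell from 3772 to 2318 between the ages in 5xFAD and from 4054 to 2976 in the interaction. Genes called rose from 1035 to 1362 between the genotypes at 6 months and from 1705 to 1978 between the ages in WT. Of the 10 genes, 1 in place of 3 was then called at 1 month, and 1 in place of 2 between the ages in WT. Without the 3 rRNA-rich libraries, genes called were 321 in place of 1035 between the genotypes at 6 months, 1947 between the ages in 5xFAD and 2354 in place of 4054 in the interaction. Of the 10 genes, 1 in place of 3 was then called at 6 months and 1 in place of 2 between the ages in WT. A fit of only the samples compared called 501 genes at 6 months. With no filter beyond 1 count, 4 transcripts of the 10 genes were called at 6 months in place of 2. The share of complexin mRNA from Cplx3 and Cplx4 differed by -0.30 points between the ages in WT when taken from counts and not per length, against 0.99.

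With each replicate left out in turn, genes called ran from 1893 to 2868 between the genotypes at 1 month, with the lowest count without WT replicate 2 and 2097 without 5xFAD replicate 2. At 6 months they ran from 276 without WT replicate 2 to 1687 without 5xFAD replicate 3, with 360 without WT replicate 1 and 553 and 583 without 5xFAD replicates 1 and 2. Between the ages in WT they ran from 780 to 1855, with 780 and 846 without WT replicates 2 and 1 of 6 months and 845 without WT replicate 2 of 1 month. Those same 3 libraries took the 10 genes from 2 called to 1 there, in a range of 1 to 3. Transcripts of the 10 genes called ran from 1 to 2 at 1 month, from 0 to 5 at 6 months, from 0 to 1 between the ages in WT, from 1 to 4 between the ages in 5xFAD and from 3 to 6 in the interaction. The lowest counts came without WT replicate 2 or 3 or 5xFAD replicate 2 or 3 at 1 month, without WT replicate 1 or 2 or 5xFAD replicate 2 at 6 months (with 1 without 5xFAD replicate 1 and 5 without replicate 3), without WT replicate 1 or 2 of 6 months between the ages in WT, without 5xFAD replicate 2 of either age between the ages in 5xFAD (with 2 without replicate 3 of 1 month), and without 5xFAD replicate 2 of 1 month or WT replicate 2 of 6 months in the interaction. The complexin share at 6 months differed by -0.15 to 0.85 points between the genotypes, the lowest without WT replicate 2.

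The labels do not say whether replicate numbers pair the libraries, and no pairing was seen in the counts. Same-numbered libraries of different groups had correlations of -0.0852 to 0.0623 in their deviations from the group means. Differently numbered libraries had -0.0814 to 0.0786. With 3 libraries per group, this cannot exclude a pairing. With the replicate number as a block, edgeR called 3, 2, 2, 3 and 4 of the 10 genes in the comparisons at 1 month, at 6 months, between the ages in WT, between the ages in 5xFAD and in the interaction, and 1, 0, 0, 3 and 4 of their transcripts. The gene that did not pass with the block was Syt1 at 6 months (-0.31, edgeR adjusted p = 0.0519).

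Single genes that changed sign were uncalled in the reported fit and under the alternative, with edgeR adjusted p of at least 0.112 and 0.197. After removal of the trend on length and GC these were Cplx1 (0.035) and Vamp2 (0.094) between the genotypes at 1 month, Rab3a (-0.0076) at 6 months, Cplx1 (0.054) between the ages in WT, Cplx1 (-0.058), Cplx4 (-0.10), Snap25 (-0.13), Vamp2 (-0.066) and Rab3a (-0.060) between the ages in 5xFAD, and Cplx1 (-0.11) in the interaction. Without the 3 rRNA-rich libraries they were Cplx1 (0.013), Cplx4 (0.13), Snap25 (0.038) and Rab3a (-0.053) at 6 months, Cplx1 (0.047) and Stx3 (0.032) between the ages in WT, and Cplx3 (-0.075), Cplx4 (0.11) and Snap25 (0.16) in the interaction. Scaling by library size alone put Cplx4 at -0.012 at 1 month. Stx3 between the ages in WT was 0.031 and 0.023 with the other filters, 0.0044 with only the samples compared and 0.0022 without pseudogenes and mitochondrial and ribosomal RNA genes. Over the replicates left out, Cplx4 ran from -0.033 to 0.066 and Stx3 from -0.017 to 0.087 at 1 month. At 6 months Cplx1 ran from -0.13 to 0.020, Cplx4 from -0.12 to 0.028 and Rab3a from -0.014 to 0.11. Between the ages in WT, Cplx1 ran from -0.079 to 0.048 and Stx3 from -0.024 to 0.048. Between the ages in 5xFAD, Cplx3 ran from -0.081 to 0.010, Cplx4 from -0.0040 to 0.14, Snap25 from -0.12 to 0.082 and Vamp2 from -0.0021 to 0.074. In the interaction, Cplx1 ran from -0.0013 to 0.17, Cplx3 from -0.021 to 0.17, Cplx4 from -0.15 to 0.017 and Snap25 from -0.23 to 0.0012.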
